A study of Mus musculus with 4 samples.

Results

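A set of 10 genes of the brain's blood vessels were followed in the dorsal cortex of mouse embryos: Pecam1, Tie1 and Eng, which mark endothelial cells in general, the VEGF receptors Kdr and Flt1 with their ligand Vegfa, and the barrier genes Cldn5, Mfsd2a, Slc2a1 and Abcb1a. They were taken by symbol from the deposited table as features that the platform annotation assigns to a single gene, with the brightest feature kept where a gene had several. All 10 were found, out of 19938 genes with such a feature, and all 10 lay above the filter on dim genes, which left 13956 genes tested. The rule reads symbols and brightness, not the difference between the groups, but the 10 genes were chosen with earlier results of these data known.

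Cortical vessels grow in from the surface towards a gradient of VEGF made by neural progenitors and, later, glia. Within the brain the endothelial cells seal their junctions, shut down transport in vesicles and take on nutrient and efflux carriers, which together form the blood-brain barrier. Endothelial cells arise from mesoderm, outside the neural lineage in which NestinCre is active.

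The tissue was dissected at E18.5 (embryonic day), and its RNA was hybridised to 4 single-colour arrays with probes along whole transcripts. The 2 control arrays came from embryos labelled Mek1fl/wt, Mek2-/-, and the 2 mutant arrays from embryos labelled Mek1fl/fl, Mek2-/-, NestinCre. Mek1 and Mek2 encode the kinases that activate ERK. Mek2 is thus missing from both groups, endothelium included, although the design text calls the controls wild type. NestinCre is a transgene that makes Cre recombinase in progenitors of the neural lineage, and so in the neurons and glia they give rise to, and it is named for the mutants only, so any effect of the transgene itself and the loss of Mek1 cannot be told apart. The comparison addresses whether transcripts of a cell type outside that lineage differ when neural cells of the cortex lose Mek1. The labels name no litter, and do not state that replicates are separate embryos. The p-values set each difference against the spread between arrays, moderated by that of all genes, and speak only for these samples. By their transcripts, however, each group held 1 female and 1 male embryo (Xist and Y-linked genes), with females on control 1 and mutant 2. In this bulk tissue, fewer cells of a type and less RNA per cell cannot be told apart.

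None of the 10 genes passed the test. Limma called 0 of 10 at an adjusted p under 0.05, against 1.02% of all genes tested (1.01% lower and 0.0143% higher in mutants). At an unadjusted p under 0.05 there was 1 gene, Mfsd2a, lower in mutants, against 13.4% of all genes in either direction, 7.69% lower and 5.73% higher. The control and mutant arrays did not overlap for that gene alone, whereas they did not overlap for 44.3% of all genes (21.4% lower and 22.8% higher). The mean was lower in mutants for 6 of the 10, against 47.7% of all genes. The median difference over the 10 genes, mutant minus control on the log2 scale, was -0.04, and over all genes tested it was 0.01. With astrocyte and radial glia genes in the same arrays the picture was different. Of 14 tested, 9 were called lower and none higher. The mean was lower in mutants for all 14, and the median difference was -1.11. Some of the 9 calls were lost with either control left out. That list was put together with these results known, and the difference between it and the 10 genes was not itself tested.

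**Figure D1:**
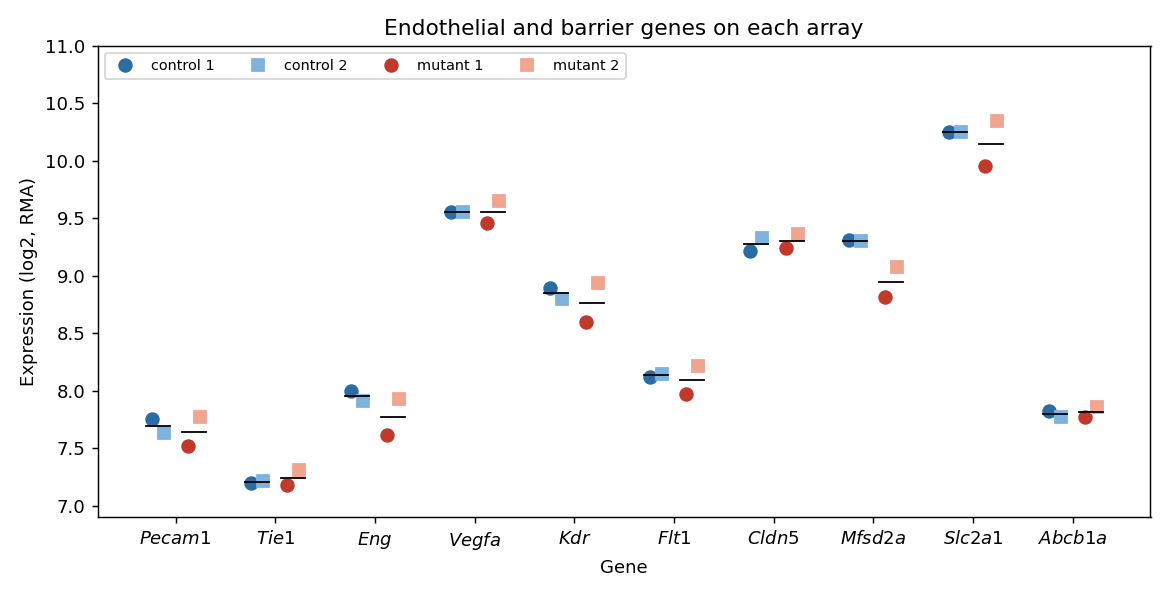
Expression of the 10 genes on each of the 4 arrays (log2, RMA), with circles for replicate 1, squares for replicate 2, blue for controls and red for mutants; black lines are group means. Values of the groups overlap for each gene but Mfsd2a, and mutant 1 is the lowest array for 8 of the 10 genes.

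Mfsd2a encodes a lysolipid transporter that brings docosahexaenoic acid into the brain and that limits vesicle transport across the endothelium. Its level was 9.31 and 9.30 (log2) on the control arrays and 8.82 and 9.08 on mutant 1 and mutant 2. Both mutants lay below both controls, and the controls were closer to each other than the mutants were. The difference was -0.36 ± 0.10 (SE, n = 2 per group), a 1.28-fold lower mean level, with a 95% interval from -0.60 to -0.12. The adjusted p over all genes was 0.218 in limma, so the gene was not called. Without mutant 2, a fit that called 6.31% of all genes, it was called (difference -0.49, adjusted p = 0.0118), and without mutant 1, where 1.88% were called, it was not (-0.23, adjusted p = 0.208). Set within each array against the mean of the 8 other endothelial and barrier genes, Vegfa left aside, Mfsd2a stood 0.91 and 0.92 above that mean in controls and 0.59 and 0.61 above it in mutants. On that scale, a difference of log2 levels between features of 1 array, the groups did not overlap for 5 of the 9 genes: Mfsd2a (difference -0.31) and Eng (-0.11) were lower in mutants, and Flt1 (0.05), Tie1 (0.13) and Abcb1a (0.11) higher. A lower value of 1 gene raises the others on this scale. The measure was chosen after the values were seen and has no test. The share of all genes whose groups did not overlap on this scale was not computed, and on the plain log2 scale it was 44.3%.

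The region upstream of the start of Mfsd2a is shown because this gene alone had groups that did not overlap, next to that of Slc2a1, a barrier transporter that is a textbook target of the hypoxia inducible factors. Each line gives the 250 bases before the annotated start from RefSeq (GRCm38.p6), 5′ to 3′ on the gene's strand, at chr4:122961189-122961438 (minus strand) for Mfsd2a and at chr4:119108495-119108744 (plus strand) for Slc2a1. Capitals mark ACGTG, the core letters bound by those factors, searched on both strands; the search was for this motif alone.
Mfsd2a: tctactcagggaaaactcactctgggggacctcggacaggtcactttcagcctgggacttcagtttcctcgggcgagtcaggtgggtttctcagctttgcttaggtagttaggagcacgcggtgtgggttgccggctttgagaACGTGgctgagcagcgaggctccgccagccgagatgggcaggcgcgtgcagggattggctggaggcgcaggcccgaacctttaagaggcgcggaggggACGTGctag
Slc2a1: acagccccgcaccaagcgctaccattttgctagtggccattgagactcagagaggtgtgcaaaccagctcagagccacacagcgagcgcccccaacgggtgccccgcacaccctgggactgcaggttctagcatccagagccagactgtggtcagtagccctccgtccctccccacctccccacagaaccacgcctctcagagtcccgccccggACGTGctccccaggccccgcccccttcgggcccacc
The core stands at 2 places before Mfsd2a and at 1 before Slc2a1, and it occurs in 16.6% of the 32851 regions of that length in the table. Of the 9 genes that the table lists, 3 had it in at least 1 region; the third was Vegfa, which has 2 listed starts and the core before 1 of them. Pecam1 is not in the table. A match of these letters describes the sequence only, and no binding was measured.

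The other barrier genes had overlapping groups. Cldn5, the main claudin of endothelial tight junctions in the brain, was at 9.22 and 9.33 in controls and 9.24 and 9.36 in mutants. Each mutant value lay close to a control value. The difference was 0.03 ± 0.07 (SE), with an interval from -0.16 to 0.21 (limma, adjusted p = 0.929). Slc2a1 encodes GLUT1, which carries glucose across the barrier and is found in glia too. It was at 10.26 and 10.25 in controls, 9.95 in mutant 1 and 10.34 in mutant 2. The mutants thus lay on either side of the controls, 0.39 apart, and the difference of -0.10 ± 0.13 (SE) did not pass (adjusted p = 0.803 in limma). Abcb1a, one of the rodent genes for the efflux pump P-glycoprotein, was at 7.82 and 7.77 in controls and 7.77 and 7.86 in mutants. Its values on the 4 arrays overlapped, and the difference was 0.02 ± 0.06 (SE, adjusted p = 0.945 in limma).

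Among the general endothelial genes, Pecam1, an adhesion protein of endothelial junctions, was at 7.75 and 7.63 in controls, 7.52 in mutant 1 and 7.77 in mutant 2. The mutants spanned the controls, and the difference was -0.05 ± 0.10 (SE, adjusted p = 0.897 in limma). Tie1, an orphan receptor that modulates angiopoietin signalling through its partner Tek, was at 7.20 and 7.21 in controls and 7.18 and 7.31 in mutants, a difference of 0.04 ± 0.07 (SE, adjusted p = 0.882 in limma). Eng encodes endoglin, a co-receptor for BMP9 and TGF-beta on endothelium. It was at 7.99 and 7.91 in controls, 7.61 in mutant 1 and 7.93 in mutant 2. Mutant 1 alone lay below the controls, and the difference of -0.18 ± 0.11 (SE) was the second largest of the 10 genes (adjusted p = 0.575 in limma).

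Vegfa, made mainly by cells other than the endothelium, was nearly the same in both groups on average. Its level was 9.55 on both control arrays, 9.46 on mutant 1 and 9.65 on mutant 2. The mutants lay about equally far below and above the controls, so the difference was 0.00 ± 0.08 (SE), with an interval from -0.20 to 0.20 (adjusted p = 0.99998 in limma). Kdr, or VEGFR2, the main signalling receptor for VEGF-A, was at 8.90 and 8.80 in controls and at 8.60 and 8.93 in mutants, a difference of -0.08 ± 0.12 (SE, adjusted p = 0.839 in limma). Flt1, or VEGFR1, a high-affinity receptor that acts largely as a decoy, was at 8.12 and 8.15 in controls and at 7.97 and 8.22 in mutants, a difference of -0.04 ± 0.09 (SE, adjusted p = 0.921 in limma). For both receptors mutant 1 was the lowest array and mutant 2 the highest.

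**Figure D2:**
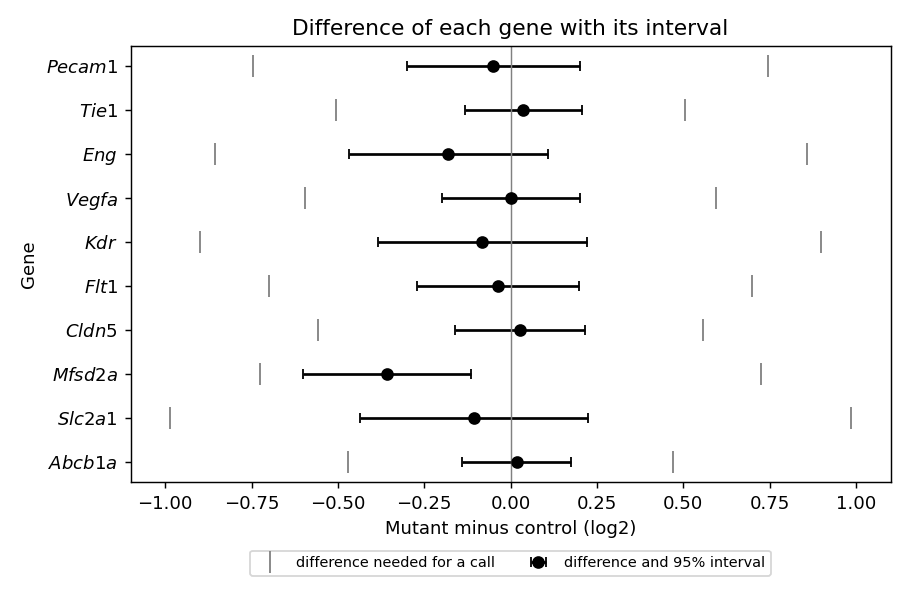
Mutant minus control difference (log2) of each gene as a point with its 95% interval from limma; grey ticks mark the size of difference, given each gene's SE, that would have been called at an adjusted p under 0.05. The interval of Mfsd2a alone leaves out 0, and no point reaches its tick.

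The intervals show what sizes these arrays could resolve. Those of the 9 genes other than Mfsd2a all held 0. Their lower ends ran from -0.47 for Eng to -0.13 for Tie1, and their upper ends from 0.11 for Eng to 0.23 for Slc2a1. For Cldn5 the interval corresponded to 0.895-fold to 1.16-fold of the control level, and for Vegfa to 0.871-fold to 1.15-fold. These intervals are per gene and are not adjusted for the number of genes. To be called, a gene would have had to differ by between 0.47 (Abcb1a) and 0.98 (Slc2a1), given its SE. A p that missed the threshold does not show that the levels were equal.

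The spread within the mutant group was larger than the difference between the groups for 9 of the 10 genes, all but Mfsd2a. Mutant 2 was above mutant 1 for 10 of 10 genes, by between 0.09 (Abcb1a) and 0.39 (Slc2a1), with a median of 0.24. Over all genes tested that median was 0.04, and the 2 controls differed by a median of -0.01 over the 10 genes. Mutant 1 was the lowest of the 4 arrays for 8 of the 10 genes, against 37.7% of all genes, and mutant 2 was the highest for 8 of the 10, against 34.2%. Both held at once for 6 of the 10, against 12.7% of all genes. Among the other 27 pan-endothelial genes mutant 1 was lowest for 9 and mutant 2 highest for 12, and the median of mutant 2 minus mutant 1 was 0.07; the lists were not tested against each other. Mutant 1 was a male embryo and mutant 2 a female one, and the part of embryo sex in this gap was not tested. Without mutant 1 the median difference of the 10 genes was 0.09, and without mutant 2 it was -0.17.

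**Figure D3:**
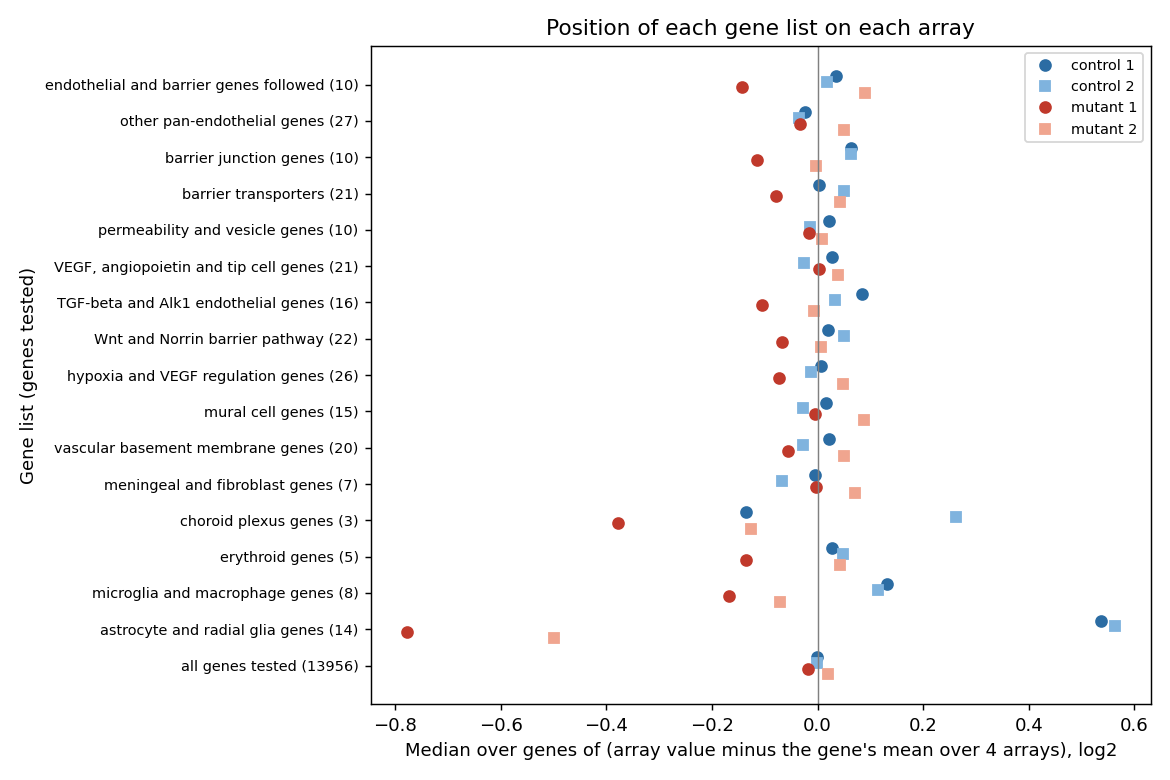
Median over the genes of each list of the array's value minus the gene's own mean over the 4 arrays (log2), with the number of genes tested in brackets and the same symbols per array as in the plot of single genes. The 10 endothelial and barrier genes lie at 0.04 and 0.02 on the control arrays, at -0.14 on mutant 1 and at 0.09 on mutant 2, while astrocyte and radial glia genes lie at 0.54 and 0.56 on controls and at -0.78 and -0.50 on mutants.

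The label was checked on other genes of the same cells. For this list and those that follow, the shares over all genes tested serve as the background. In limma 1.02% were called, and 7.69% were lower and 5.73% higher at an unadjusted p under 0.05. The mean was lower in mutants for 47.7%. Of 30 further pan-endothelial genes, 27 were tested, and limma called 0, with 1 at an unadjusted p under 0.05, higher in mutants. In all, 18 of these 27 had a higher mean in mutants and 9 a lower one, and their median difference was 0.04. The smallest p belonged to Tal1, a transcription factor shared by endothelial and blood lineages (0.21 ± 0.08, SE; adjusted p = 0.331 in limma), and to Ecscr, an endothelial surface protein (0.17 ± 0.08, SE; adjusted p = 0.416). Cdh5, the cadherin of endothelial junctions, and Tek, the angiopoietin receptor, were picked for their role after their values were seen. Cdh5 was at 7.70 and 7.69 in controls and at 7.72 and 7.79 in mutants, and Tek at 7.46 and 7.48 in controls and at 7.41 and 7.60 in mutants. The summed linear level of the 27 genes was 101% and 98.9% of the control mean on control 1 and control 2, 98.9% on mutant 1 and 105% on mutant 2.

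Of the tight junction proteins and their partners beyond Cldn5, 10 were tested and 1 was called. Jam2, a junctional adhesion molecule of endothelium that is also known from neural progenitors, fell 1.74-fold, from 8.48 and 8.52 in controls to 7.65 and 7.76 in mutants (adjusted p = 0.0210 in limma). The call was lost without control 1, without control 2 and with embryo sex as a covariate. Most calls over all genes were lost under those settings too. The difference of Jam2 lay between -0.85 and -0.74 under the 15 alternatives. Cgn, the junction plaque protein cingulin, had the next smallest p and was higher in mutants without passing (0.32 ± 0.07, SE; adjusted p = 0.153 in limma). The median of the 10 differences was -0.12, and without mutant 2 it was -0.18.

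Among 21 tested transporters and receptors of the barrier, 1 was called and lower. Slco1c1, a carrier of thyroid hormone in brain endothelium that is also known from astrocytes, fell 2.13-fold, from 10.21 and 10.20 in controls to 8.96 and 9.27 in mutants (adjusted p = 0.0265 in limma). Its call too was lost without control 1, without control 2 and with embryo sex as a covariate, as were most calls over all genes. Its difference lay between -1.24 and -0.94 under the 15 alternatives. Slc38a3, a glutamine transporter of vessels and astrocytes, did not pass (-0.68 ± 0.10, SE; adjusted p = 0.0615 in limma). The mean was lower in mutants for 18 of the 21 and higher for 3, with a median difference of -0.03. Without mutant 1 the difference of Slc38a3 was -0.54, and without mutant 2 it was -0.83. For Jam2 and Slco1c1 the share of endothelial and of glial RNA in the signal was not measured.

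Genes of leaky or activated vessels and of caveolae gave 0 calls among 10 tested in limma, with 2 lower at an unadjusted p under 0.05. These were Vcam1, a leukocyte adhesion molecule that neural stem cells also carry (-0.73 ± 0.14, SE; adjusted p = 0.122), and Cav2, a caveolin (-0.21 ± 0.08, SE; adjusted p = 0.366). Vcam1 was at 9.10 and 9.17 in controls and at 8.19 and 8.62 in mutants. Without mutant 1 its difference was -0.51, and without mutant 2 it was -0.94. The median of the 10 differences was 0.01.

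The rest of the VEGF and angiopoietin system, 21 genes with those of sprouting tip cells, gave 0 calls in limma, with 1 lower and 1 higher at an unadjusted p under 0.05, and a median difference of -0.01. The higher one was Vegfd, a ligand known from lymphatic growth (0.39 ± 0.11, SE; adjusted p = 0.246), and the lower one was Cxcr4, a chemokine receptor of tip cells and of migrating neurons (-0.17 ± 0.06, SE; adjusted p = 0.308). Nrp1, a VEGF co-receptor that neurons express too, was picked for its role after its value was seen and did not pass (-0.19 ± 0.10, SE; adjusted p = 0.467 in limma). Of 26 tested regulators and targets of hypoxia signalling, the pathway that induces Vegfa and Slc2a1, limma called 0, with 2 lower and 1 higher at an unadjusted p under 0.05. The smallest p belonged to Hif3a, a hypoxia inducible factor subunit (0.28 ± 0.05, SE; adjusted p = 0.115), and P4ha1, a collagen prolyl hydroxylase (-0.27 ± 0.07, SE; adjusted p = 0.220), and the median of the list was -0.00. Without mutant 2 the median difference was -0.02 for the VEGF and angiopoietin list and -0.07 for the hypoxia list.

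Around endoglin, 16 genes of TGF-beta and BMP9 signalling were tested and 1 was called. Itgav, the alpha-v integrin subunit through which neural cells activate TGF-beta beside vessels, fell 1.64-fold, from 8.34 and 8.30 in controls to 7.53 and 7.67 in mutants (adjusted p = 0.0254 in limma); it was not called without control 1 (adjusted p = 0.185) or without control 2 (adjusted p = 0.164). Tgfb2, a TGF-beta ligand, did not pass (-0.72 ± 0.16, SE; adjusted p = 0.165 in limma). Of the 16, 7 were lower and 2 higher at an unadjusted p under 0.05 in limma, against 7.69% and 5.73% of all genes. Their median difference was -0.11. That median was -0.07 without mutant 1 and -0.16 without mutant 2. In the Wnt and Norrin pathway, which turns on barrier genes, limma called 0 of 22 tested, with 4 lower and none higher at an unadjusted p under 0.05, and the median was -0.01. Tspan12, the tetraspanin that assists the Norrin receptor Fzd4, had the smallest p, at 9.11 and 9.13 in controls and 8.79 and 8.80 in mutants (-0.32 ± 0.05, SE; adjusted p = 0.0826). Next came Tnfrsf19, a Wnt target (-0.30 ± 0.06, SE; adjusted p = 0.136). Without mutant 2 the median of the Wnt and Norrin list was -0.07.

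**Figure D4:**
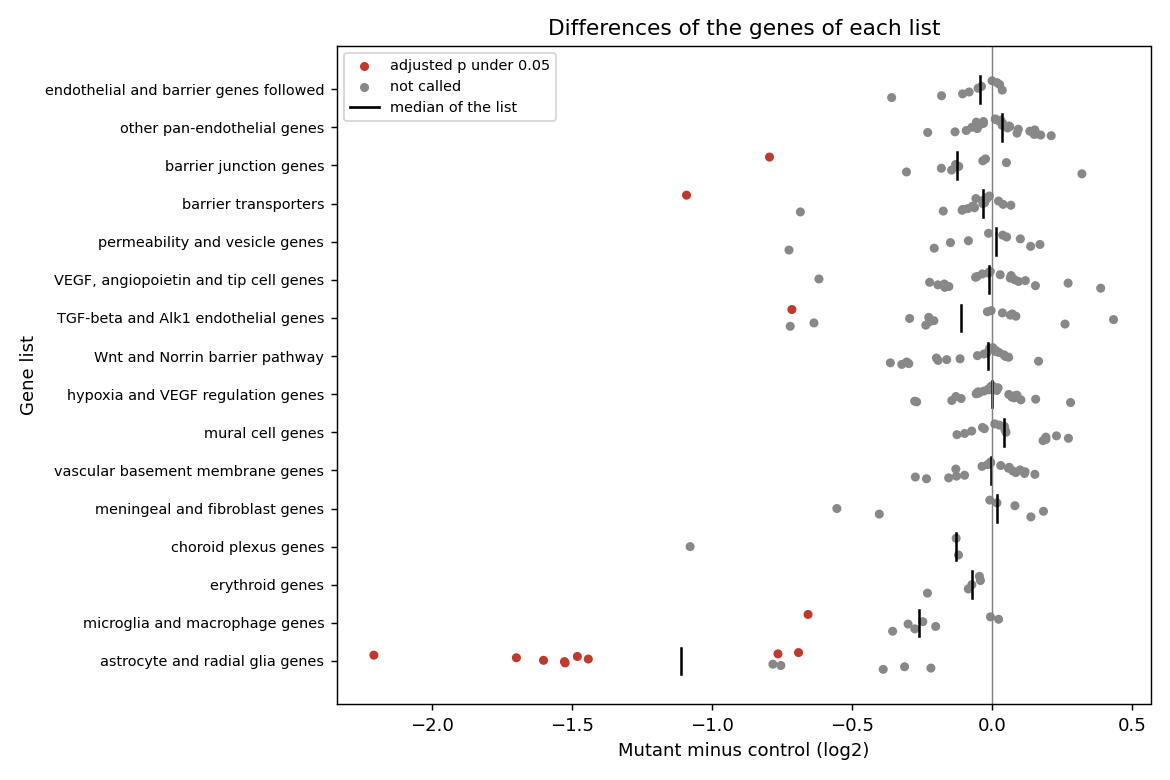
Mutant minus control difference (log2) of every tested gene of each list, with red for genes at an adjusted p under 0.05 in limma, grey for the others and a black line at the median of the list. The endothelial and barrier genes followed, the other pan-endothelial genes and the mural cell genes have no red point. Among junction genes, barrier transporters, TGF-beta and Alk1 endothelial genes and microglial genes 1 gene each is red. Among astrocyte and radial glia genes 9 are red.

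In the vessel wall, of 15 mural cell genes tested, limma called 0, with 3 higher at an unadjusted p under 0.05, and the median difference was 0.04. Higd1b and Ndufa4l2, mitochondrial proteins enriched in pericytes, had the smallest p (0.18 ± 0.05 and 0.19 ± 0.06, SE; adjusted p = 0.251 and 0.303). Of 20 genes of the vascular basement membrane and its receptors, limma called 0, with 2 lower at an unadjusted p under 0.05, and the median was -0.00. These were Itga6, a laminin receptor (-0.23 ± 0.06, SE; adjusted p = 0.196), and Sparcl1, a matrix protein of astrocytes and vessels (-0.15 ± 0.06, SE; adjusted p = 0.352). Without mutant 2 the difference was -0.27 for Itga6 and -0.17 for Sparcl1.

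Markers of other cells in the dissection were read beside these results. Erythroid genes, a sign of blood in the vessels, gave 0 calls among 5 tested in limma, with 1 lower at an unadjusted p under 0.05; it was Alas2, the first enzyme of haem synthesis in red cells (-0.23 ± 0.06, SE; adjusted p = 0.236), and next came the anion exchanger Slc4a1 (-0.08 ± 0.08, SE; adjusted p = 0.702). The globin genes Hba-a1 and Hbb-b1 were on the erythroid list of 14 but not among the 5 tested. The summed level of those 5 was 85.2% of the control mean on mutant 1 and 98.1% on mutant 2. That of the 10 endothelial and barrier genes was 86.3% and 103%. The latter sum includes Slc2a1 and Vegfa, the brightest of the 10, which other cells make too, so it does not measure endothelium alone. The sum of the 27 other pan-endothelial genes was 98.9% and 105%. Of 8 microglial and macrophage genes tested, limma called 1 lower and none higher, with 5 lower and none higher at an unadjusted p under 0.05. The mean was lower in mutants for 7 and higher for 1, and the median difference was -0.26. The gene called, Fcrls, an Fc receptor-like scavenger protein, fell 1.58-fold (adjusted p = 0.0254 in limma), from 6.68 and 6.78 in controls to 6.08 and 6.06 in mutants. Both mutant values lay under the filter on dim genes (6.16), which is set on a gene's mean, so the fold rests on values below that cut. This call did not hold when either control array was dropped (difference -0.71 with control 1 dropped and -0.61 with control 2 dropped). C1qb, a complement subunit, did not pass (-0.36 ± 0.08, SE, adjusted p = 0.149 in limma). The summed level of the 8 genes was 83.7% and 85.8% of the control mean on the mutants. Of 7 meningeal and fibroblast genes limma called 0, with none at an unadjusted p under 0.05. Col3a1, a fibrillar collagen, and Serping1, a complement inhibitor, had the smallest p (adjusted p = 0.405 and 0.463 in limma). Without mutant 2 their differences were 0.11 and -0.68. Of 3 choroid plexus genes limma likewise called 0, with none at an unadjusted p under 0.05. Folr1, a folate receptor, had the smaller p (adjusted p = 0.527), and Ttr, transthyretin, was at 9.15 on control 2 and between 6.50 and 7.17 on the other arrays (adjusted p = 0.633). In the astrocyte and radial glia list Slc1a3, Aldoc, Fabp7, Aldh1l1, Acsbg1, Bcan, Tnc, Hopx and Sox9 fell, with differences from -0.69 (Sox9) to -2.21 (Tnc) on the log2 scale, and the summed level was 42.8% and 51.4% of the control mean on the mutants. The part of these cells in the values of the 10 genes was not tested.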

How the data were processed

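RNA from 4 dorsal cortex samples was hybridised to whole-transcript arrays. Per the submitters' processing notes, the authors made the deposited log2 values with RMA, which corrects background, quantile-normalizes the arrays and summarises probes into 1 value per feature; version, build and filters are not stated, and the log base was inferred from the values. RMA hides a shift shared by most transcripts and compresses differences of dim genes. Array medians lay between 7.11 and 7.13, no detection flag was used, and precision is limited by the number of arrays.

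Of 35557 features, 21789 have 1 symbol, 1621 several, and 12147 are not listed in the platform annotation; 21698 were matched to RefSeq (GRCm38.p6) by Entrez identifier. The brightest feature was kept per gene, and genes under the 30th percentile of means (6.16) were left out. Limma 3.58.1 in R 4.3.3 (lmFit, eBayes) compared mutant with control with Benjamini-Hochberg adjustment over 13956 genes, with 2 residual and 3.31 prior degrees of freedom; ± is the moderated SE. The fit was tested on simulated data. The exact permutation test cannot reach 0.05 with 2 against 2 arrays and was not used. The members and the 15 related lists (278 genes, 223 tested, 2 of them on more than 1 list) were chosen with earlier results of these data known. From each list the called genes are named, and where fewer than 2 were called, the 2 with the smallest p. Genes picked for their role are marked as such. Same-numbered arrays of the groups deviated in opposite senses (correlation -0.16 over genes), so replicate numbers were not taken as pairs. Alternatives changed the variance prior, filter, feature choice, normalization, covariates and arrays used.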

Additional observations from a re-analysis of the deposited data

How the results depend on the processing

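Of 15 alternatives, 14 were planned and 1, centring each array on the other pan-endothelial genes, was chosen after seeing the data. The number of the 10 genes called was 0 under each of them except without mutant 2, where it was 1 (Mfsd2a), so leaving out 1 array gave 0 to 1. Mfsd2a stayed lower in mutants under all 15, between -0.49 and -0.23, with adjusted p from 0.0118 to 0.711, and Eng likewise, between -0.34 and -0.02. With 1 array left out, the median of the 10 genes ran from -0.166 to 0.0852, Cldn5 from -0.034 to 0.0888, Slc2a1 from -0.299 to 0.0894, Pecam1 from -0.172 to 0.0724, Flt1 from -0.16 to 0.0848, Kdr from -0.249 to 0.0855, Tie1 from -0.0283 to 0.102, Abcb1a from -0.0269 to 0.0633 and Vegfa from -0.0944 to 0.0953; the lowest value was without mutant 2 and the highest without mutant 1 in each case. Centred on the other pan-endothelial genes, Cldn5 was at -0.0111, Tie1 at -0.00177, Abcb1a at -0.0202 and Vegfa at -0.038, each on the other side of 0 from its reported value. None of these was called. This centring shifts the difference of every gene by the same amount, and the reported values of these genes lay close to 0. The cause of the changes with 1 array left out was not tested. Over all genes the 143 calls became 238 with a trend, 15 without the filter, 0 with every feature tested, 17 with embryo sex as a covariate and 310 with the pan-endothelial centring; leaving out 1 array gave 9 to 881. The replicate block, the number of the labels as a covariate, gave 116 calls and none of the 10 genes (Mfsd2a adjusted p = 0.203); the crossed pairing is the fit with embryo sex, with 17 calls. Tie1 lay under the stricter filter and has no value there. Among the other pan-endothelial and the mural genes 0 were called under every alternative. Jam2, Slco1c1 and Itgav were each called under 10 of the 15 alternatives. They were not called without the filter, with every feature tested, with embryo sex as a covariate or with either control left out.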
